A study of Mus musculus with 18 samples.

Results

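The comparison described here set macrophages given LPS plus IL-10 for 30 min against macrophages given LPS alone for 30 min, across every probe set of the array. Its members were chosen by their labels, not by any measured value: the 3 arrays of the first treatment and the 3 of the second, 6 of the 18 arrays in all. Bone marrow cells of IL-10-/- mice had been cultured for 7 days with CSF-1, supplied as medium conditioned by L cells, which drives them to mature macrophages. Treated cells then received LPS at 100 ng/ml together with IL-10 at 10 ng/ml, and the control cells LPS at 100 ng/ml alone, both in medium without CSF-1. All cells therefore lacked a working Il10 gene, all were exposed to LPS, and no untreated or wild-type cells were analysed here. Each group had 1 array from each of experiments 1, 2 and 3, which were done one after another with mice matched in age and sex, and arrays were compared within an experiment. The other 12 arrays (10 and 20 min, same treatments, 3 arrays a group) were used for the estimate of spread and to ask whether the effect at 30 min differed from that at the earlier times.

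LPS, a component of the bacterial outer membrane, activates Toll-like receptor 4 on macrophages and within minutes starts transcription of cytokine, chemokine and immediate early genes through NF-kB and MAP kinases. IL-10 binds a receptor made of Il10ra and Il10rb chains, activates the kinases Jak1 and Tyk2, and through them the transcription factor STAT3, which enters the nucleus and binds DNA. The anti-inflammatory effect of IL-10 on macrophages is known to need STAT3 and new gene expression. Cells that lack their own Il10 gene make no functional IL-10 of their own, so added IL-10 is the difference between the groups. Socs3 is a feedback inhibitor induced by STAT3, Etv3 an ETS-family transcription repressor, and Sbno2 a homologue of the Drosophila gene strawberry notch.

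IL-10 raised a short list of genes at 30 min and lowered none that passed the test. Of 45037 probe sets tested with limma, 12 probe sets of 7 genes were higher with LPS plus IL-10 than with LPS at an adjusted p under 0.05, which is 0.0266% of those tested, and 0 were lower. Tests at an unadjusted p under 0.05 gave 677 probe sets higher (1.5%) and 831 lower (1.85%), 3.35% in all. The 7 genes were Sbno2, Socs3, Etv3, Gadd45g, Irf1, Il10 and Mt1. In all 12 probe sets the 3 arrays with IL-10 lay above the 3 arrays without it, an ordering that 2.96% of all probe sets showed, while 3.61% showed the reverse. The calls depended on the experiments that were included. Without experiment 1 only 1 probe set, of Sbno2, remained called, without experiment 2 there were 7 (Sbno2, Socs3, Etv3 and Irf1), and without experiment 3 there were 9, of which 8 were among the 12 (Sbno2, Socs3, Etv3, Gadd45g and Il10) and the other was of Gadd45b. With no block for the experiment, 3 were called, all of Sbno2 or Socs3, and with no intensity trend in the estimate of spread 4, again of these genes.

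**Figure D1:**
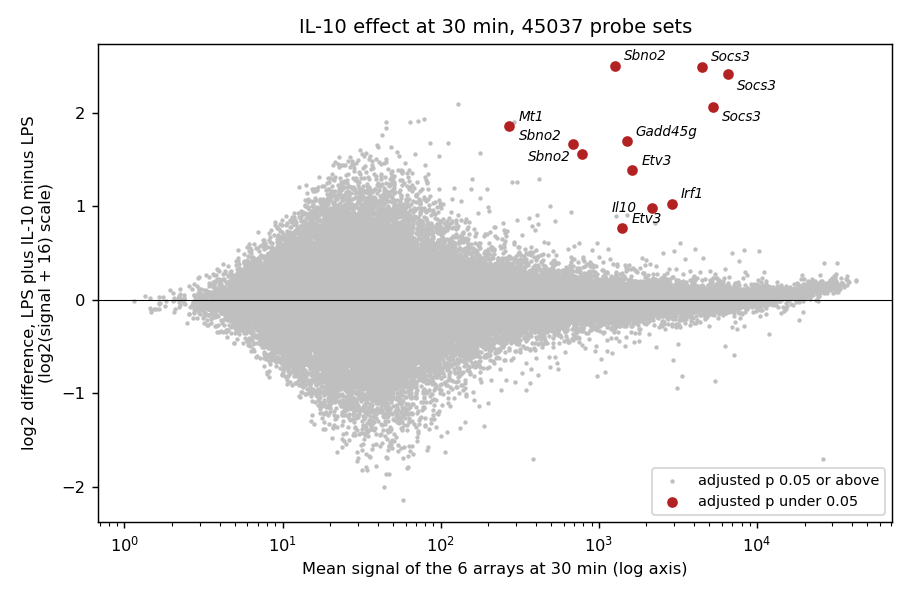
Each point is one of 45037 probe sets, with the mean signal of the 6 arrays at 30 min on the x axis (log axis) and the fitted log2 difference, LPS plus IL-10 minus LPS, on the y axis (log2(signal + 16) scale). The 12 red points passed an adjusted p of 0.05, and all lie above 0.

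The labelled cell type was checked against its markers. All 13 macrophage markers (Lyz2, Csf1r, Cd68, Cd14, Adgre1 and others) had a signal above 87.1, the mean of the array medians. Their summed signal was 189489 to 213748 on the arrays with IL-10, against 156270 to 212797 on the LPS arrays. Of the 9 granulocyte markers with a probe set, all were above that level, at sums of 6653 to 14383 with IL-10 and 6283 to 14338 with LPS, led by S100a8. B and T lymphocyte markers (341 to 468 with IL-10, 332 to 430.3 with LPS), dendritic cell markers (338 to 572, against 359 to 728), erythroid markers (166 to 251, against 132 to 267) and mast cell and basophil markers (113 to 197, against 67.5 to 151) were dim, with 2 of 8, 1 of 7, 0 of 4 and 0 of 4 genes above that level at 30 min. Stromal markers summed to 1919 to 2672 with IL-10 and 1755 to 2542 with LPS. Of these 8 genes 5 were above that level at 30 min, led by Col1a2. No marker passed the test, and the sums of the groups overlapped in every list; the part of these cells in any result was not tested. In such bulk samples fewer cells of a type and less RNA per cell cannot be told apart.

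The 6 arrays were alike in their overall signal. Medians were 77.3 to 80.4 with LPS plus IL-10 and 77.6 to 86.9 with LPS, and the ratios of 3' to 5' signal for Gapdh were 0.775 to 0.847, against 0.801 to 0.819. The brightest transcripts ran slightly higher with IL-10: the median log2 difference of the 9 housekeeping genes was 0.13, and 6 were higher. After quantile normalisation the same median was -0.01 and 4 were higher, so no direction is given for those genes. The median over all 18193 genes was -0.01.

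Sequence upstream of the called genes was taken from RefSeq (GRCm38.p6), in windows of 300 bases that run from 250 bases before a start site to 50 after it. The windows were searched for TTCNNNGAA, the palindromic half-site pair bound by STAT dimers, which reads the same on both strands. Of the 7 called genes 6 had windows, 9 in all, and 4 of those windows, of 3 genes (Socs3, Sbno2 and Irf1), held the motif, against 8.3% of all 32851 windows. A match describes the letters and does not show that a factor binds there, and a window without a match shows only that these letters are not in it. The 250 bases before the start are printed for those 4 windows because they held the motif, which is in capitals, each 5' to 3' on the strand of the gene.
Socs3, chr11:117969367-117969616, minus strand: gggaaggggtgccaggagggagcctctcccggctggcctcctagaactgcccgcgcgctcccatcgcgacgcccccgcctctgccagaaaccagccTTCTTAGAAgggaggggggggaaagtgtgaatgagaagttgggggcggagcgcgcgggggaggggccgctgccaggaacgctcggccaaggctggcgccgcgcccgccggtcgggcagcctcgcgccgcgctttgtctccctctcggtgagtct
Sbno2, first start, chr10:80102703-80102952, minus strand: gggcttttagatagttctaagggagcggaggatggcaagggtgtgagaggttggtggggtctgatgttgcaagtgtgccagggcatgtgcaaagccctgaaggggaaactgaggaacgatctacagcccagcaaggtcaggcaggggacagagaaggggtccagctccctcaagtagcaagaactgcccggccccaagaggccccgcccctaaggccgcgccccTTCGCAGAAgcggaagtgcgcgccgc
Sbno2, second start, chr10:80101188-80101437, minus strand: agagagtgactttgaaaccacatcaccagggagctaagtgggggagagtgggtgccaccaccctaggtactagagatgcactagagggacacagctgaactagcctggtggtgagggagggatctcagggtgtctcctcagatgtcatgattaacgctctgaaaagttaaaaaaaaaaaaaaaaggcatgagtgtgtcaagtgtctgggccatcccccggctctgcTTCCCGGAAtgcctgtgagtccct
Irf1, chr11:53769764-53770013, plus strand: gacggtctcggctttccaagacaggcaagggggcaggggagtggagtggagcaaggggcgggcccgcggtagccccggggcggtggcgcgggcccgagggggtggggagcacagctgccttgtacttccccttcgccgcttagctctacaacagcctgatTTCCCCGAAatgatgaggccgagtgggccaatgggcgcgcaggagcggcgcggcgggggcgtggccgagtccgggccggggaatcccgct
The first base of the motif lay 154 bases before the start in Socs3, 26 and 24 bases before the first and second starts of Sbno2, and 90 bases before the start in Irf1. The windows of Etv3, Gadd45g and Mt1, the other window of Sbno2 and that of Irf1 did not hold it.

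Sbno2 gave the smallest p of the whole array. Its brightest probe set read 1994, 2480.0 and 1977 in experiments 1, 2 and 3 with LPS plus IL-10, against 309, 441 and 350.5 with LPS. Every array with IL-10 lay far above the highest LPS array, and the within-experiment log2 differences were 2.63, 2.45 and 2.44. The fitted difference was 2.51 (SE 0.17, limma adjusted p = 1.41e-07), a 5.68-fold rise on the log2(signal + 16) scale. A second probe set (1072, 1161 and 1302 with IL-10, against 340.4, 507 and 338 with LPS) rose by 1.56 and another (962, 992 and 1188, against 346, 352 and 259.6) by 1.67 on the log2 scale. The fourth and dimmest, whose signal was 187 ± 93.5 with IL-10 and 117 ± 4.13 with LPS (SD, n = 3), differed by 0.50 and overlapped between the groups. Thus 3 of 4 Sbno2 probe sets were called. Those with differences of 1.67 and 0.50 are of a type (_x_at) in which some probes can also match other transcripts.

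Socs3, which encodes an inhibitor of cytokine receptor signalling and is a direct STAT3 target, was the brightest of the risers. The probe set with the smallest p read 6439.7, 8008 and 8106 with LPS plus IL-10, against 884, 2749 and 924 with LPS (log2 difference 2.50, SE 0.24, adjusted p = 3.35e-05). The LPS array of experiment 2 stood above the LPS arrays of the other experiments, and the difference was smallest in that experiment, 1.54, against 2.84 and 3.11 in experiments 1 and 3. The same order was seen on the other Socs3 probe sets, with 1.71 and 1.43 in experiment 2 and between 2.28 and 3.03 in the others. Those probe sets averaged 10873 ± 454 with IL-10 and 2196 ± 1134 with LPS, and 8403 ± 1407 with IL-10 and 2162 ± 1198 with LPS (SD, n = 3). Their fitted log2 differences were 2.42 and 2.07, and both are of a type (_x_at) in which some probes can also match other transcripts.

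Among the other SOCS genes, the family of feedback inhibitors that Socs3 belongs to, none passed. Of the 8 family members 4 had higher values with IL-10 and 4 lower, with a median log2 difference of 0.00, against -0.01 over all genes. Socs5 differed by -0.12, Socs4 by -0.10 and Socs7 by 0.18 on the log2 scale. Socs1, the closest to Socs3 in function and named here after its values were seen, read 26.3, 64.2 and 117 with IL-10, against 7.5, 22.3 and 14.6 with LPS. Its groups did not overlap, but its signals were dim and its log2 difference of 1.34 (SE 0.45) did not pass. Socs3 was the 1 called member of the family, against 7 called of all 18193 genes.

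**Figure D2:**
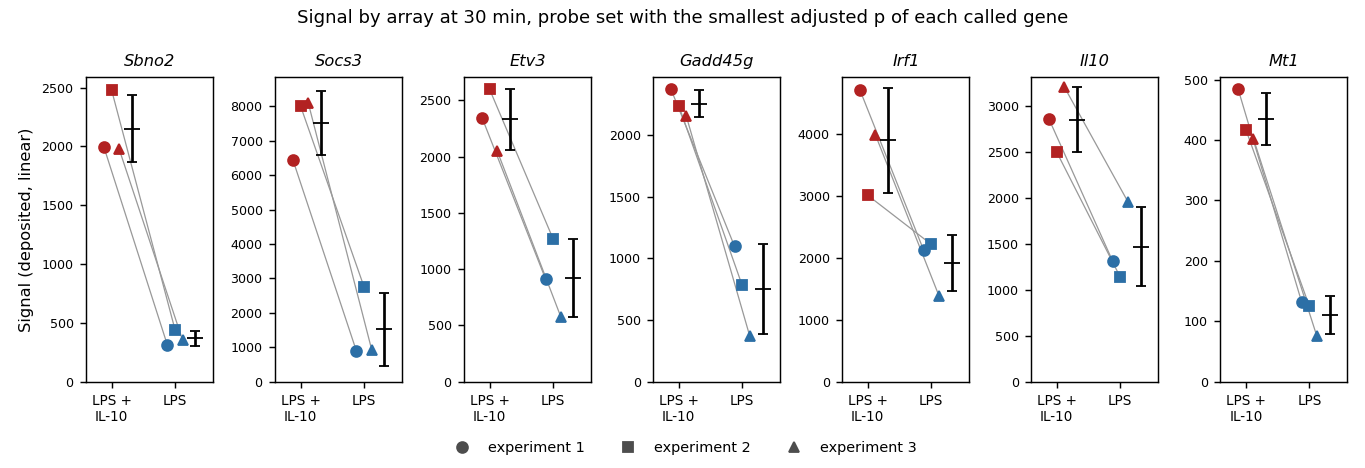
Deposited signal (linear axis from 0) of each array at 30 min for the 7 called genes, by the probe set with the smallest adjusted p. LPS plus IL-10 (red) is left of LPS (blue), symbols and grey lines join the arrays of an experiment, and the black mark and bar are the mean and SD of 3 arrays. In every panel the red points lie above the blue ones.

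Etv3 was called on 2 of its 4 probe sets. The strongest read 2346, 2597 and 2049 with LPS plus IL-10, against 913, 1268 and 577 with LPS (log2 difference 1.39, SE 0.15, adjusted p = 0.000158), a 2.62-fold rise. The other called probe set read 2184, 1836 and 1300.5 with IL-10, against 1206, 1153 and 749.6 with LPS (log2 difference 0.76, SE 0.10, adjusted p = 0.00214). The groups did not overlap on either. The brightest probe set averaged 2963 ± 500.4 with IL-10 and 2130.4 ± 593 with LPS (SD, n = 3), with within-experiment log2 differences of 0.47, 0.34 and 0.69. Its groups overlapped, and it missed the threshold at a log2 difference of 0.50 (adjusted p = 0.515). The dimmest, at 155 ± 52.2 with IL-10 and 136 ± 36.5 with LPS, differed by 0.16. The 4 probe sets thus gave differences from 0.16 to 1.39 for the same gene, and the sources used here do not say which transcripts each one reads.

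Sbno2 and Etv3 were the called members of the list of transcription repressors and co-repressors, which held 24 genes, 22 of them with a probe set. Over all genes 7 of 18193 were called. The lists were drawn up with earlier results known, so counts of called members in this or any other list are not independent evidence. In that list 12 genes had higher values with IL-10 and 10 lower, with a median log2 difference of 0.01, against -0.01 over all genes. Nfil3, a leucine zipper repressor induced by IL-10, read 843, 600.5 and 528 with LPS plus IL-10, against 453, 269 and 250.3 with LPS. Its groups did not overlap and its log2 difference was 1.01 (SE 0.24), but it missed the threshold (adjusted p = 0.626). It passed in the fit on the 6 arrays alone (adjusted p = 0.0143), which has only 2 residual degrees of freedom. Id1, an inhibitor of helix-loop-helix factors, differed by 0.55 with overlapping groups.

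Gadd45g, a stress sensor that binds and activates an upstream kinase of p38 and JNK, rose 3.25-fold. Its signals were 2372, 2242 and 2155 with LPS plus IL-10, against 1098, 781 and 368 with LPS (log2 difference 1.70, SE 0.22, adjusted p = 0.00171). The arrays with IL-10 were close to each other, while the LPS arrays spread, so the difference ranged from 1.10 in experiment 1 to 2.50 in experiment 3. The related gene Gadd45b read 2579, 2323 and 1010.3 with IL-10, against 1023, 1625 and 542 with LPS. It was higher in 3 of 3 experiments (log2 difference 0.90, SE 0.17) and missed the threshold (adjusted p = 0.0926), and without experiment 3 it passed.

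Irf1, a transcription factor of the interferon response, read 4697, 3006 and 3984 with LPS plus IL-10, against 2122, 2215 and 1388 with LPS. It was higher in every experiment, least in experiment 2 (0.44, against 1.14 and 1.51 in experiments 1 and 3), with a fitted log2 difference of 1.03 (SE 0.15, adjusted p = 0.006). It was the 1 called gene among interferon regulatory factors and response genes, of which 13 of 20 had higher values (median log2 difference 0.03). Over all 18193 genes 7 were called, 48.9% had higher values and the median was -0.01. Cxcl10, an interferon-induced chemokine, differed by 0.45 and Mx1, an antiviral GTPase, by -0.27, and neither passed. In the fit on the 6 arrays alone Irf1 itself missed the threshold.

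The Il10 probe set rose as well. It read 2857, 2500.3 and 3209 with LPS plus IL-10, against 1313, 1138 and 1960.4 with LPS (log2 difference 0.98, SE 0.16, adjusted p = 0.0207), and was higher in 3 of 3 experiments. The cells came from IL-10-/- mice, and the sources used here do not say where the probes lie relative to the disrupted part of the gene. The signal therefore checks nothing about the genotype and does not show that a functional cytokine was made.

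Mt1 encodes a metallothionein, a small protein that binds zinc and copper. Its dimmer probe set read 484, 417 and 402 with LPS plus IL-10, against 132, 125 and 74.8 with LPS (log2 difference 1.86, SE 0.31, adjusted p = 0.0287). It was not called with a pseudocount of 1 or after quantile normalisation. Its brighter probe set, of a type (_s_at) whose probes match more than one transcript, read 9426, 9009 and 9456 with IL-10, against 7141, 7870.2 and 7686 with LPS. There too the groups did not overlap, but the log2 difference was 0.30 and did not pass. Mt2, the neighbouring metallothionein gene, read 3328, 3437 and 3773 with IL-10, against 2076, 2714 and 2538 with LPS. The groups were again apart, at a log2 difference of 0.53 (SE 0.10, adjusted p = 0.0959), which passed when only probe sets above the 75th percentile of the arrays were tested. Of 18 genes in the list of Gadd45 and stress response genes 15 had higher values with IL-10, 12 after quantile normalisation. Over all 18193 genes 48.9% had higher values, and 9077 were higher after quantile normalisation. Gadd45g and Mt1 were the called ones, against 7 called over all genes, in a list that was also drawn up with earlier results known.

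The parts of the pathway that carry the IL-10 signal did not pass the test, with 1 probe set close to it. Of the 19 genes of the IL-10 receptor and JAK-STAT list with a probe set, 11 had higher values and 8 lower, with a median log2 difference of 0.02. The receptor chains Il10ra and Il10rb differed by -0.11 (95% interval -0.49 to 0.27) and 0.02 (-0.21 to 0.26), and the kinases Jak1 and Tyk2 by -0.05 (-0.25 to 0.15) and -0.15 (-0.37 to 0.07). Stat3 had 4 probe sets that disagreed. The brightest averaged 2664 ± 433 with LPS plus IL-10 and 2535 ± 405 with LPS (SD, n = 3; log2 difference 0.07, 95% interval -0.31 to 0.45), and the next and the dimmest differed by -0.00 and -0.04. The remaining one read 483, 518 and 404 with IL-10, against 134, 88 and 121 with LPS. On that probe set the groups were far apart (log2 difference 1.91, SE 0.36), and it missed the threshold at an adjusted p of 0.116. It passed once 2 LPS arrays (20 min, experiments 2 and 3), with array medians of 121.2 and 111 against 75.8 to 97 on the other 16, were left out of the estimate of spread (adjusted p = 0.0039) and in the fit on the 6 arrays alone (adjusted p = 0.00527).

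Most IL-10 and STAT3 induced genes had higher values at 30 min. Of its 27 genes 25 had higher values with LPS plus IL-10 and 2 lower, with a median log2 difference of 0.30, against 48.9% of 18193 genes higher and a median of -0.01 over all genes. After quantile normalisation 23 were higher and the median was 0.28. In 9 genes (33.3%) the groups did not overlap and IL-10 was higher, against 2.48% of all genes. All 7 called genes belong to that list, which was drawn up with earlier results of these arrays known. Their presence in it is therefore not independent evidence. Nor are the list's count of higher values, its median and its share of genes without overlap at 30 min. Zfp36, an mRNA decay factor, read 11202, 10848 and 7158 with IL-10, against 6387, 9429.9 and 4772 with LPS. It was higher in 3 of 3 experiments with overlapping groups (log2 difference 0.53, SE 0.13, adjusted p = 0.687). Junb differed by 0.31, Bcl3 by 0.21, Dusp1 by 0.03 and Il4ra, a known later IL-10 target, by -0.03. At 10 min 15 of the 27 genes were higher (median 0.06), against 9565 of all 18193 genes (median 0.01). At 20 min 16 were higher (median 0.01), against 8019 of all genes (median -0.04). The 20 min values include 2 LPS arrays with high medians (121.2 and 111). These arrays are not shared with the 30 min comparison, but the list was drawn up with earlier results known, so these counts are not independent evidence either.

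**Figure D3:**
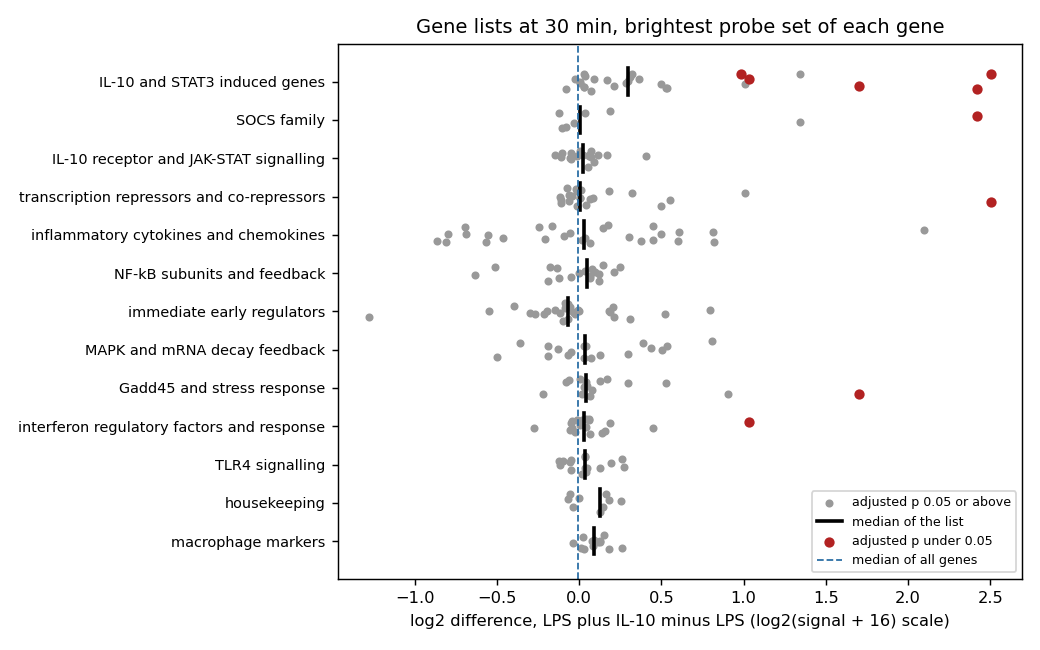
Fitted log2 difference at 30 min (LPS plus IL-10 minus LPS, log2(signal + 16) scale) of each gene of 13 lists, by its brightest probe set. Black bars are list medians, red points passed the test (Etv3 and Mt1, called on dimmer probe sets, are grey) and the dashed line is the median of all genes. The bar of the IL-10 and STAT3 induced genes lies at 0.30, and those of the other lists lie between -0.07 and 0.13. The lists were drawn up with earlier results of these arrays known.

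Inflammatory cytokines and chemokines went both ways, and none of the 28 genes of that list passed. There were 15 with higher and 13 with lower values with LPS plus IL-10 (median log2 difference 0.03), and 16 had a mean signal above 87.1. Tnf, the gene of the cytokine TNF, had the lowest value. It read 7448, 4755 and 811 in experiments 1, 2 and 3 with IL-10, against 7736, 9683 and 2339.8 with LPS. The difference was close to 0 in experiment 1 (-0.05) and larger in experiments 2 (-1.02) and 3 (-1.51). Its fitted log2 difference of -0.86 (95% interval -1.33 to -0.40) had an unadjusted p of 0.001 and an adjusted p of 0.903.

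Cxcl1, a neutrophil chemokine, had a similar order over experiments. Its brightest probe set read 2447, 4386 and 808 with LPS plus IL-10, against 2890.5, 7299 and 2264 with LPS, with differences of -0.24, -0.73 and -1.47 on the log2 scale (fitted -0.81, SE 0.26). The other Cxcl1 probe sets differed by -0.64 and -0.41, so all 3 gave lower values. The brightest is of the _s_at type and the one at -0.41 of the _x_at type, whose probes can match other transcripts. Cxcl2, a related and brighter chemokine, averaged 17185 ± 4449.5 with IL-10 and 19557 ± 3113 with LPS (SD, n = 3; log2 difference -0.21, 95% interval -0.61 to 0.18). None of these passed, and the groups overlapped in each.

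The CC chemokines had values on the other side of 0. Ccl4, a macrophage chemokine, read 2560.5, 3872 and 2125 with LPS plus IL-10, against 1375, 2744 and 1002 with LPS (log2 difference 0.82, SE 0.22, adjusted p = 1.00). Within each experiment it was higher with IL-10, while the groups overlapped because experiment 2 was high in both. It passed in the fit on the 6 arrays alone, with 2 residual degrees of freedom (adjusted p = 0.0195). Ccl3, its close relative, read 4604, 7509.8 and 3618 with IL-10, against 3183, 6112 and 2512 with LPS, and differed by 0.45 (95% interval 0.06 to 0.84). Ccl7 differed by 0.61 and Ccl2 by 0.50. Ccl4 and Ccl3 thus had higher values in 3 of 3 experiments without passing over all probe sets.

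Tnfsf14, a TNF-family ligand, read 392, 175 and 82.2 with LPS plus IL-10, against 99.4, 15.4 and 11.1 with LPS. The groups overlapped and most of the signals were dim. Its log2 difference of 2.09 (SE 0.43) was the largest of the list, and it missed the threshold (adjusted p = 0.233). With a pseudocount of 64 it passed (adjusted p = 0.0368). Il1b averaged 911 ± 379 with IL-10 and 824 ± 496 with LPS (SD, n = 3) and differed by 0.30 (95% interval -0.34 to 0.94). Ptgs2, the inducible cyclooxygenase, differed by 0.07 (-0.63 to 0.76). Il6 at 60.7 ± 33 with IL-10 and 26.5 ± 13.1 with LPS, and Il12b at 71.1 ± 20.3 and 41.6 ± 13.8, averaged below the level of the array medians in both groups, and neither passed.

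**Figure D4:**
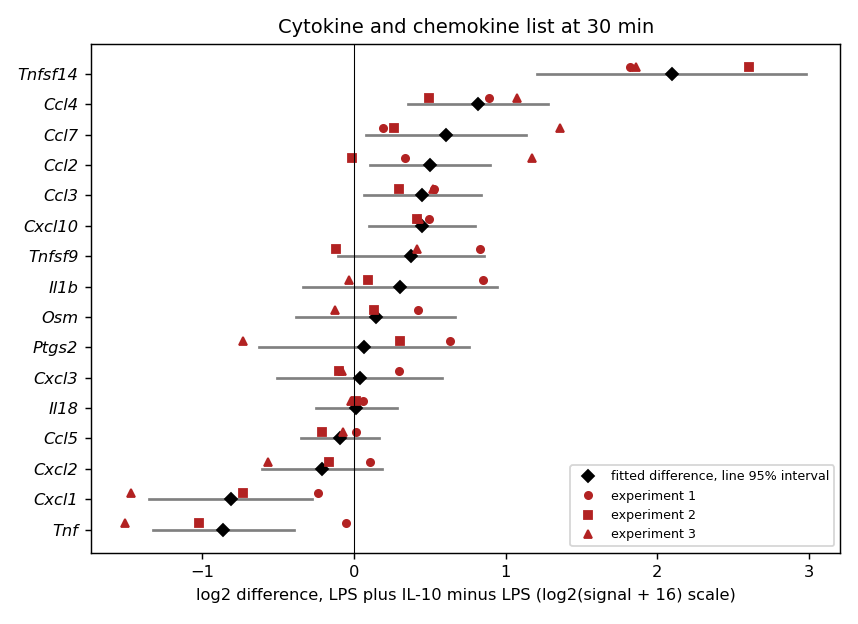
The 16 cytokine and chemokine genes with a mean signal above 87.1, ordered by their fitted log2 difference at 30 min (diamonds, with 95% intervals, LPS plus IL-10 minus LPS, log2(signal + 16) scale); red symbols are the differences within experiments 1, 2 and 3. Tnf and Cxcl1 lie lowest, at -0.86 and -0.81, Tnfsf14 highest at 2.09, and no gene passed the test over all probe sets.

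The lists of the LPS response itself held no call. Of the 26 immediate early regulators 19 had lower values with LPS plus IL-10 and 7 higher, with a median log2 difference of -0.07, and the counts were the same after quantile normalisation. Over all 18193 genes 48.9% had higher values and the median was -0.01. At 10 min, before any probe set was called, 7 of the 26 were also higher. Ier3, a stress-induced regulator of cell survival, read 10550.3, 12684 and 12930.5 with IL-10, against 7109.6, 10288 and 7984 with LPS, without overlap (log2 difference 0.52, adjusted p = 1.00). Nr4a2, an orphan nuclear receptor, had 9, 59.9 and 81.3 with IL-10, against 108, 149 and 112 with LPS, also without overlap and from dim signals (log2 difference -1.28). Csrnp1 differed by 0.80, Nr4a1 by -0.55, Egr1 by -0.40 and Fos by -0.09. These values went in both directions and none passed.

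Of 18 NF-kB subunits and feedback genes, 10 had higher values with IL-10 and 8 lower (median log2 difference 0.05). Nfkbia, the inhibitor of NF-kB that is made within minutes of its activation, differed by 0.14 (95% interval -0.20 to 0.48) and Tnfaip3, a ubiquitin-editing inhibitor, by -0.12 (-0.39 to 0.15). Traf1, a signalling adaptor, differed by -0.64 and Nfkbid, a nuclear inhibitor, by -0.51. Of 18 MAPK and mRNA decay feedback genes 11 had higher values (median 0.04). The phosphatase gene Dusp6 differed by -0.50 and Dusp1 averaged 14166 ± 2670.0 with IL-10 and 13908 ± 2917 with LPS (SD, n = 3). In TLR4 signalling 10 of 16 genes were higher (median 0.03), with Traf6 at 0.27, Ticam1 at 0.26 and Myd88 at 0.19. No member of these lists was called. Over all 18193 genes 7 were called and 48.9% had higher values.

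No probe set with lower values passed. The genes given here are from the 10 with the smallest p among named probe sets that had a mean signal above 87.1 over the 18 arrays and lower values in 3 of 3 experiments, and dimmer probe sets with smaller p are not described. Gm9946, a predicted gene, came first, at 20.8, 40.1 and 83.8 with LPS plus IL-10, against 97.8, 160.3 and 197 with LPS (log2 difference -1.46, SE 0.32, adjusted p = 0.395). Its groups did not overlap, and its signals with IL-10 lay below that level. Man2b1, a lysosomal mannosidase, read 236, 479 and 553 on the dimmer of its probe sets with IL-10, against 429, 792 and 679 with LPS (log2 difference -0.61, SE 0.15, adjusted p = 0.671). Sncb, a synuclein best known from neurons, read 154, 60.2 and 89.6 with IL-10, against 199, 344 and 274 with LPS (log2 difference -1.35, SE 0.33, adjusted p = 0.695). The groups overlapped for Man2b1 and did not for Sncb. Rgs1, which switches off G protein signalling from chemokine receptors, read 2079, 3771 and 778 with LPS plus IL-10, against 3194, 6825 and 2000.4 with LPS. It was lower in 3 of 3 experiments with overlapping groups (log2 difference -0.94, SE 0.24, adjusted p = 0.764). In the fit on the 6 arrays alone, with 2 residual degrees of freedom, it was the 1 probe set called lower (adjusted p = 0.0188). Capg, an actin-capping protein, differed by -1.70 on a probe set that read 79, 503 and 80.8 with IL-10, against 723, 544 and 384 with LPS. This probe set is not the brightest of Capg and is of a type (_x_at) in which some probes can also match other transcripts. Experiment 2 showed almost no difference there (-0.11). Uncalled genes with higher values, picked by the same rule, included some not described above. Smyd1 differed by 0.99 on an _x_at probe set whose groups did not overlap (adjusted p = 0.764). G530011O06Rik differed by 0.94 (adjusted p = 0.786) and Rab5c by 0.54, both with overlapping groups, and none of these passed.

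The called genes were followed over the 3 times to see when the groups parted. Sbno2 averaged 460.2 ± 56.1, 1384 ± 304 and 2150.1 ± 286 at 10, 20 and 30 min with LPS plus IL-10, against 421 ± 126, 471 ± 29.7 and 367 ± 67.3 with LPS (SD, n = 3). Socs3 on the probe set with the smallest p averaged 387 ± 141, 3031 ± 775 and 7518 ± 935 with IL-10, against 299 ± 164, 937 ± 539 and 1519 ± 1065 with LPS. Etv3 on its strongest probe set averaged 579 ± 104, 1397 ± 124 and 2331 ± 274 with IL-10, against 591 ± 179, 590.2 ± 126 and 919 ± 345 with LPS. All 3 genes had like means in both groups at 10 min and were apart at 20 min. The 5 probe sets called at 20 min (0.0111% of those tested) were all higher. All of them were among the 12 called at 30 min (100% of the first and 41.7% of the second). The 2 comparisons share no arrays, but they share the experiments, the fit and its estimate of spread. A probe set with a small estimated spread is thus favoured at both times, and the overlap is not independent evidence.

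Gadd45g, Irf1, Il10 and Mt1 were called at 30 min and not at 20 min. Gadd45g averaged 671 ± 271, 1231 ± 497 and 2256 ± 109 at 10, 20 and 30 min with LPS plus IL-10, against 639 ± 315, 808 ± 519 and 749 ± 366 with LPS. Irf1 averaged 1853 ± 337, 2066 ± 452 and 3895 ± 849 with IL-10, against 1735 ± 273, 1642 ± 499 and 1908 ± 453 with LPS. Il10 averaged 923 ± 152, 1313 ± 519 and 2856 ± 354 with IL-10, against 878 ± 159, 923 ± 356 and 1470.4 ± 433 with LPS. The dimmer Mt1 probe set averaged 75.4 ± 16.2, 232 ± 23.9 and 434 ± 43.4 with IL-10, against 56.9 ± 23.4, 112 ± 54.4 and 110.4 ± 31 with LPS. A call at one time and not at the other does not show a difference between the times, and the test of that difference follows.

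Between 10 and 30 min the IL-10 effect grew for 6 probe sets of 3 genes (0.0133% of 45037 tested, limma with Benjamini-Hochberg adjustment; the LPS and IL-10 arrays of the 2 times are different arrays). The log2 effect of Sbno2 increased by 2.35 (SE 0.23, adjusted p = 0.00017) and that of Socs3 by 2.45 (SE 0.33, adjusted p = 0.00976) on its brightest probe set. For Etv3 it increased by 1.39 (SE 0.21, adjusted p = 0.0347). The change for Gadd45g was 1.58 (adjusted p = 0.335) and for Irf1 0.94 (adjusted p = 0.873), neither of which passed. Without experiment 1, 2 or 3 this count was 0, 3 and 3, and it was 1 without the block and 3 after quantile normalisation. Between 20 and 30 min limma called 0 probe sets, with 2617 at an unadjusted p under 0.05. The 20 min effects include 2 LPS arrays with high medians (121.2 and 111), and their median over all genes was -0.04. Between these times the effect of Sbno2 increased by 1.00 (SE 0.23, adjusted p = 0.753). The Socs3 probe sets differed in sign. The change was -0.11 (SE 0.33) for the brightest and -0.20 (SE 0.31) for the other _x_at probe set. For the Socs3 probe set with the smallest p at 30 min it was 0.71 (SE 0.34). The second called Etv3 probe set had an effect of -0.09 at 20 min and 0.76 at 30 min, a change of 0.85 (SE 0.14, adjusted p = 0.227).

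**Figure D5:**
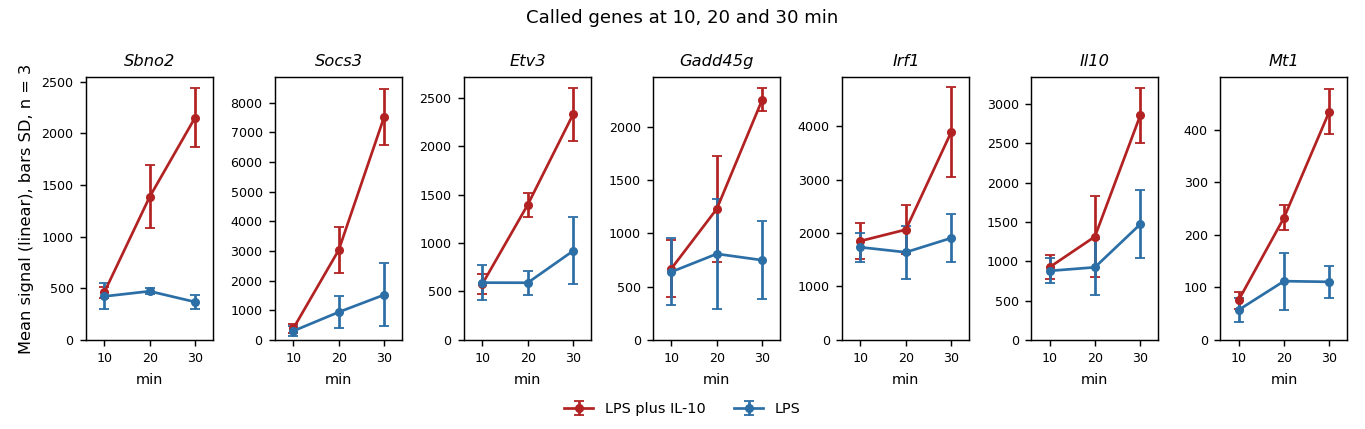
Mean signal (linear axis from 0, bars SD, n = 3 arrays) of the 7 called genes at 10, 20 and 30 min with LPS plus IL-10 (red) and LPS (blue), by the probe set with the smallest adjusted p at 30 min. The lines start together at 10 min and at 30 min the red mean is above the blue one in each panel, 2150.1 against 367 for Sbno2.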

How the data were processed

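The deposited values were array intensities (signal, linear scale). The submitters' processing notes name GCOS 1.4, the software that turns Affymetrix scans into signals; its settings are not stated in the sources used here. The mean after trimming 2 percent at each end was 500.0 on every array in the deposited table, so a change of total RNA per cell cannot be seen. No detection calls were used, and the number of arrays limits the precision.

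Signals became log2(signal + 16), which understates fold changes of dim probe sets. Of 45101 probe sets 64 were controls, and the other 45037 were tested with no filter. Of these 34945 had 1 gene symbol, 932 several and 9160 none, and the last 2 kinds stayed unnamed. A model with 1 coefficient per group plus the experiment as a block (10 residual degrees of freedom) was fitted to the 18 arrays with lmFit and eBayes (trended prior) of limma 3.58.1 in R 4.3.3, with two-sided tests and Benjamini-Hochberg adjustment over all probe sets. The block was chosen because the labels' protocols call each replicate number an independent experiment. As a check of the pairing, deviations from group means were correlated between arrays of different groups, and pairs within a group were left out. The correlations were 0.0871 to 0.424 between arrays sharing an experiment (45 pairs) and -0.301 to 0.0385 between arrays of different experiments (90 pairs). Deviations cancel out within a group, so positive values in the first set tend to force negative ones in the second. The second range is therefore not a separate check. Of the 153 pairs of arrays none shared more than 104 equal values. The fit was also run on data simulated under the same model with known shifts added, so that run does not check the model itself.

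The members, gene lists (19, holding 279 genes) and tests were chosen with earlier results of these data known. Genes for description were drawn from the called ones, a panel of pathway genes, up to 4 members of each list and 10 uncalled genes in each direction. Those 10 had the smallest p where the mean signal was above 87.1 (the mean of the array medians). Their probe sets carried 1 gene name, and the difference kept its direction over the 3 experiments. Not all of them are described. Each gene is given by its brightest probe set unless another was called or is described. Alternatives were no block, pseudocounts of 1 and 64, filters at the array median (27062 probe sets) and 75th percentile (12874), and quantile normalisation. Others were only the arrays compared, no intensity trend, and fits without each experiment or without 2 LPS arrays at 20 min (experiments 2 and 3). The medians of these 2 arrays, 121.2 and 111, were above those of all other arrays (75.8 to 97). They enter the estimate of spread of the main model and the effects at 20 min.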

Additional observations from a re-analysis of the deposited data

Results flagged for a closer look

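For 6 probe sets of 3 genes the IL-10 effect at 30 min differed from that at 10 min by a test of the difference itself (limma, interaction of treatment and time, adjusted over all probe sets). The change of the log2 effect was 2.09, 2.45 and 2.13 for the 3 Socs3 probe sets, 2.35 and 1.55 for 2 Sbno2 probe sets, and 1.39 for 1 Etv3 probe set. Each effect was larger at 30 min, and in all 6 probe sets the effect at 30 min was itself called.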

How the results depend on the processing

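The count of 12 probe sets higher with LPS plus IL-10 at 30 min was 3 with no replicate block, 4 with no intensity trend and 1 to 9 without one of the experiments, and 11 to 14 in the other alternatives. The count of 0 lower became 1 when only the arrays compared were fitted with the replicate block, with 2 residual degrees of freedom. The count of 6 for the change from 10 to 30 min was 1 with no replicate block, 3 after quantile normalisation, 0 with no intensity trend and 0 to 3 without one of the experiments. For the change from 20 to 30 min it was 0 in all alternatives run. Fits without an experiment have fewer arrays; the cause of the other changes was not tested. Of 1136 values of 97 named probe sets under the alternatives, 1071 kept their direction and side of the threshold, 40 lost the call, 7 gained one and 18 changed sign. None of those 18 was called. After quantile normalisation the log2 difference was -0.000387 for Cd14, -0.0237 for Dusp1, -0.00142 for Il10rb and -0.00766 for Rpl13a. Without one of the experiments it ranged from -0.14 to 0.11 for Col3a1, from -0.30 to 0.0697 for Dcn, from -0.0058 to 0.0567 for Dusp1, from -0.22 to 0.0221 for Fos, from -0.00395 to 0.0547 for Il10rb, from -0.0741 to 0.044 for Il4ra, from -0.46 to 0.0254 for Itgax, from -0.10 to 0.0127 for Jak1, from -0.022 to 0.54 for Pdgfrb, from -0.21 to 0.47 for Ptgs2, from -0.20 to 0.0505 for Socs4, from -0.38 to 0.10 for Socs5 and from -0.0133 to 0.43 for Ticam1. No detection calls were used, so how far dim signals lie above background is not known.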
